A study of Mus musculus with 8 samples.

Results

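Runs of closely spaced H3K27ac peaks were examined in mouse colon cancer organoids with and without Gata6. Peaks were sorted by position and linked into a chain wherever the gap to the previous peak was at most 12.5 kb, and a chain of 6 or more peaks was taken as a dense cluster. Peaks of 12.5 kb or wider helped to link a chain but were left out of its members, because a single wide peak can already be an extended domain. The choice used position and width only, and no read count. It gave 792 dense chains with 6916 members, 30.4% of the 22731 peaks, and left out 364 wide peaks that lay in 234 of the chains. Chromosome 5, where the median log2 fold change of all peaks was -0.26, is described apart: it held 86 chains with 734 members, against 706 chains with 6182 members on the other chromosomes.

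H3K27ac, the acetylation of lysine 27 of histone H3, marks active promoters and enhancers. Linking neighbouring peaks of this mark is the usual first step in defining super-enhancers, long stretches of enhancer sequence with much acetylation that often lie near genes characteristic of a cell type. The chains here were not filtered for promoters and carry no cut-off on signal, so they are called dense chains and not super-enhancers. GATA6 is a transcription factor that binds enhancers and promoters in the epithelium of the gut.

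The groups were AKP organoids (control) and Gata6KO_AKP organoids (knockout), with 3 H3K27ac CUT&RUN libraries each. In CUT&RUN an antibody guides a nuclease that cuts out the chromatin carrying the mark, and each library started from 500000 dissociated cells. Both groups share the AKP genotype. The labels do not spell it out, give C57Bl6 as the recipient mice, and do not say how Gata6 was removed, how many clones were used or whether libraries came from separate cultures. The p-values below therefore rest on the variation among these 6 libraries, and that variation may be purely technical. Reads in peaks numbered from 5141856 to 7026388 per library, and the median member held 174 to 236 reads. The peaks are named by their mm9 position as the authors' table gives them, since the table pairs them with no genes. The level at Gata6, and the H3K4me3 and IgG libraries of the series, were not analysed here.

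A dense chain held a median of 8 peaks and at most 39. Off chromosome 5 the chains spanned 22.3 to 285.1 kb, with a median of 59.2 kb and a median gap of 2.33 kb between linked peaks. Together the 792 chains spanned 55.9 Mb, of which 27.04 Mb was covered by members. Members were wider than the peaks outside dense chains: the median width was 3142.5 bp against 2468 bp, off chromosome 5 and under 12.5 kb. Their median control level was 33.4 CPM (reads scaled to a common number of reads in peaks) against 25.2 CPM. Per kilobase of peak the medians were closer, at 10.8 and 10.5 CPM, so the difference in level was small once width was taken into account. Dense chains were unevenly spread over the genome. On chromosome 7, 38.7% of peaks were members, on chromosome 8 35.8% and on chromosome 5 39.4%, whereas chromosome 3 had 14.3% and the X chromosome 4.41%, in a single chain.

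The level of a chain was taken as the sum of its members. Off chromosome 5 the control sum ranged from 80.1 to 2085 CPM, with a median of 334 CPM, and chains with more peaks had larger sums (Spearman's rho 0.750 across all 792 chains, which are not replicates and whose sums grow with the number of peaks added). The 79 chains with the highest control sums, the top 10%, held 23.9% of the control level of all members. The top 10% by knockout level held 23.7%, and 66 of the 79 chains were in both. Of the 10 highest chains in control, 9 were also among the 10 highest in knockout libraries. The order of the chains was therefore much the same in both genotypes (rho 0.951 across chains), and the differences described next were mostly smaller than the differences between chains.

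**Figure D1:**
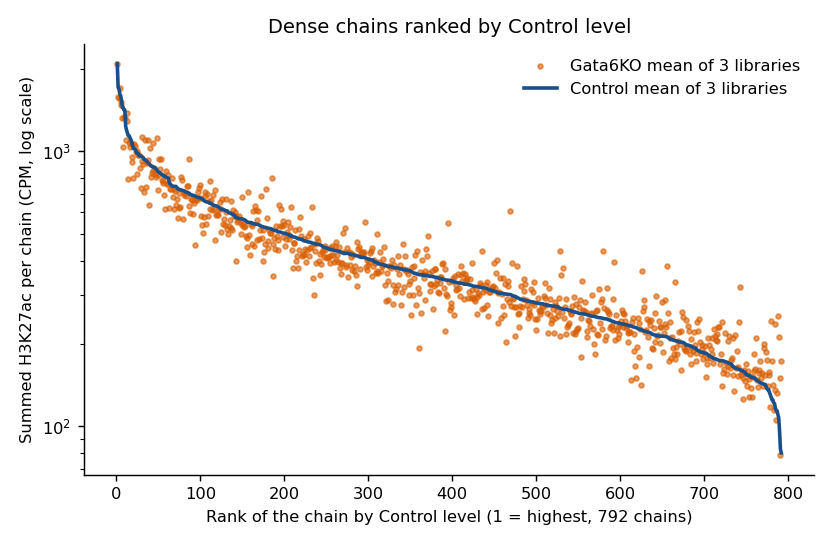
Summed H3K27ac level of each dense chain (CPM over reads in peaks, log scale) against its rank by control level, for control and knockout libraries (means of 3). The control curve falls from 2085 CPM at rank 1 to 80.1 CPM at rank 792, and the knockout values scatter around it along its whole length.

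Off chromosome 5, the sum was higher in the knockout in 159 of the 706 dense chains (22.5%) and lower in 154 (21.8%), and 393 were not called (edgeR's quasi-likelihood test, adjusted p under 0.05 after Benjamini-Hochberg adjustment over all 10082 chains of any size). Which direction was the more frequent depended on the scaling. With scaling that varied with mean count 177 dense chains were higher and 136 lower, and in a fit without chromosome 5 145 and 182. Over the 9363 chains of any size off chromosome 5, single peaks included, 16.7% were called higher and 10.8% lower. The dense chains were called more often, but a sum over more reads can show a smaller difference. Among chains with a mean level of 200 to 400 CPM, 22.1% of the 331 dense chains were higher and 19.6% lower, against 26.4% and 20.5% of the 254 chains with fewer peaks. At 185 to 200 CPM, 34.3% of 35 dense chains were higher and 17.1% lower, against 12 and 6 of 60 with fewer peaks. At 400 to 707 CPM, 19.7% of 198 dense chains were higher and 29.8% lower, against 5 and 1 of 14 with fewer peaks. The order of the shares thus differed from class to class. The difference between these shares was not tested. The 3 libraries of each group did not overlap in 156 of the 159 higher chains, in 147 of the 154 lower ones and in 75 of those not called, against 37.3% of chains of any size off chromosome 5.

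Most changes of whole chains were modest. The median log2 fold change was 0.26 in the higher and -0.20 in the lower chains, and -0.01 over all 706 chains, whose standard deviation was 0.22. A change of at least 1.5-fold was measured in 16 chains upward and 2 downward, and one of at least 2-fold in 4 upward and 0 downward. Chains that rose had a lower median control level (287 CPM) than chains that fell (427 CPM), with 323 CPM in chains not called. The group's control libraries enter both the level and the change, so this order is a description only.

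**Figure D2:**
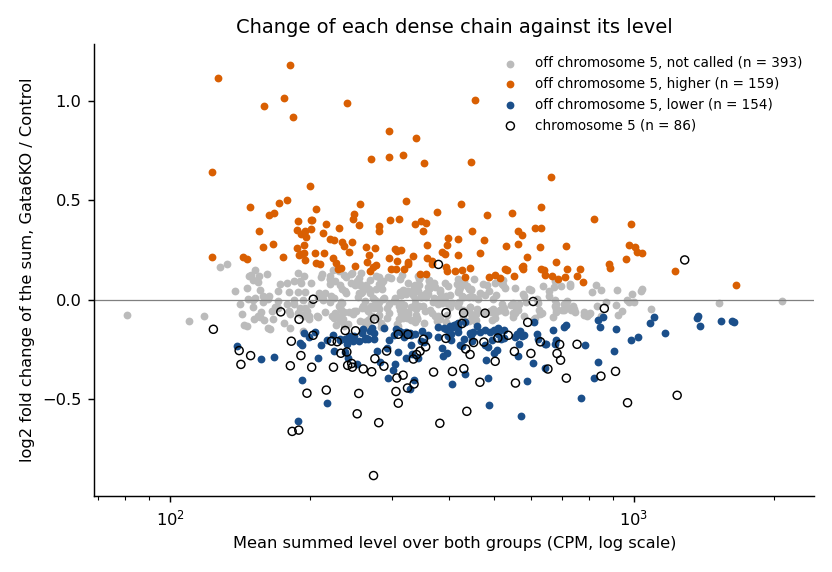
Log2 fold change of the summed level, knockout over control, against mean level (CPM, log scale) for each dense chain, with called chains coloured and chromosome 5 drawn apart. Off chromosome 5 the changes run from -0.61 to 1.18, and those of at least 2-fold lie at low and middle levels.

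The largest rise among chains whose mean sum reached the median was found at chr19:47437229-47530329, a 93.1 kb chain of 13 peaks. Its sum was 312, 302 and 291 CPM in control libraries 1 to 3 and 627, 598 and 589 CPM in knockout libraries 1 to 3. The groups lay far apart: 302 ± 10.4 CPM became 605 ± 19.5 CPM (SD over 3 libraries), a 2.01-fold rise (SE 0.05 on the log2 scale, adjusted p = 5.72e-101 by edgeR's quasi-likelihood test). Of its 13 members, 12 were called higher, and the chain moved from rank 469 in control to rank 127 in knockout libraries. The rise was uneven along the chain. The member at chr19:47452525-47454972 went from 19.5, 10.5 and 11.7 CPM to 40.4, 40.6 and 44.6 CPM. It rose more than the chain as a whole, with a log2 fold change of 1.59 ± 0.17 (adjusted p = 3.88e-02 for the difference from the chain, edgeR's test for unequal change). The strongest member, at chr19:47476138-47484142, went from 91.8, 79.8 and 83.6 CPM to 129, 111 and 118 CPM. It rose less than the chain, at 0.49 ± 0.09 (adjusted p = 4.05e-05 for the difference).

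A chain of 15 peaks over 104.4 kb at chr16:95988301-96092676 combined a high level with a large rise. It held 516, 506 and 543 CPM in control and 823, 787 and 795 CPM in knockout libraries. The sum rose 1.54-fold (log2 fold change 0.62 ± 0.04, adjusted p = 4.72e-52 by edgeR's quasi-likelihood test), 13 of the 15 members were called higher, and the rank rose from 185 to 51. Its member at chr16:96066198-96072306 went from 43.4 ± 4.43 to 101 ± 9.84 CPM, a log2 fold change 0.60 above that of the chain (adjusted p = 4.27e-05 by edgeR's test for unequal change). At chr8:91044143-91116141 a chain with 6 members rose from 252, 263 and 225 CPM to 437, 407 and 453 CPM. This was a 1.75-fold rise (log2 fold change 0.81 ± 0.05, adjusted p = 2.14e-51 by edgeR's quasi-likelihood test) in which each of the 6 members was called higher.

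Rises of this kind were also seen in a longer chain and in shorter ones. At chr14:61254750-61381762 a chain of 17 peaks over 127.0 kb held 543, 532 and 511 CPM in control and 729, 743 and 724 CPM in knockout libraries, a 1.38-fold rise (adjusted p = 2.99e-29 by edgeR's quasi-likelihood test). Each of its 17 members had a positive fold change and 9 were called. At chr4:148158960-148237334 the 12 peaks rose 1.61-fold, from 340.0 ± 10.7 to 549 ± 19.2 CPM, with 9 members called higher. At chr7:91129167-91180207 the 6 peaks rose 1.61-fold, from 269 ± 2.88 to 435 ± 22.4 CPM, with 5 called. The last of the 8 largest rises, at chr1:135951147-135997408 and chr4:106418051-106478348, were 1.40-fold and 1.36-fold. The libraries of the groups did not overlap in any of the 8, but this was a condition of their choice.

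The other 3 chains that rose at least 2-fold began from control levels near the bottom of the ranking; they lay below the median level and were chosen after their values were seen. At chr12:109599899-109639202 the sum of 5 members went from 101, 112 and 119 CPM to 257, 241 and 258 CPM. This was a 2.28-fold rise (log2 fold change 1.18 ± 0.07, adjusted p = 1.11e-59 by edgeR's quasi-likelihood test). At chr10:39237090-39275776, the chain with the lowest control sum of all 792, the 7 members went from 86.1, 80.8 and 73.3 CPM to 181, 167 and 173 CPM (2.17-fold) and each was called higher. At chr2:147786392-147819910 the 6 members went from 101, 122 and 127 CPM to 226, 237 and 245 CPM (2.03-fold), again with each member called. With scaling that varied with mean count, the log2 fold change of the chromosome 10 chain was 0.96, below 2-fold. The chain at chr19:47437229-47530329 lay at the limit: its log2 fold change was 0.998 with that scaling and 0.986 in a fit without chromosome 5. With 1 library left out it ran from 0.978 to 1.03.

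Among chains at or above the median level, the largest fall was at chr1:62750547-62831426, an 80.9 kb chain of 10 peaks. It held 689, 694 and 672 CPM in control libraries and 471, 462 and 435 CPM in knockout libraries. The sum fell from 685 ± 11.8 to 456 ± 18.9 CPM (SD over 3 libraries), or to 0.666 of the control level (log2 fold change -0.59 ± 0.04, adjusted p = 4.10e-42 by edgeR's quasi-likelihood test), and the chain moved from rank 94 to rank 220. Each of its 10 members was called lower, and no unequal change among them was detected (Simes adjusted p = 0.973 by edgeR's test for unequal change). Its strongest member, chr1:62788375-62799931, went from 136, 152 and 126 CPM to 97.2, 78.4 and 91.7 CPM.

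At chr12:103519670-103635558 a stronger chain, with 10 members over 115.9 kb, held 917, 883 and 896 CPM in control and 632, 657 and 626 CPM in knockout libraries. It fell 1.41-fold (log2 fold change -0.49 ± 0.04, adjusted p = 1.36e-37 by edgeR's quasi-likelihood test), with 8 members called lower, and dropped from rank 39 to rank 106. The member at its start, chr12:103519670-103528028, went from 119, 125 and 123 CPM to 67.9, 62.8 and 73.3 CPM and fell more than the rest, by 0.36 on the log2 scale relative to the chain (adjusted p = 2.04e-02 by edgeR's test for unequal change). At chr1:123333475-123401191 the 11 peaks fell 1.44-fold, from 574 ± 29.1 to 398 ± 1.28 CPM, with 7 called lower. At chr11:117059928-117218961, ranked 33 in control, the 12 members fell 1.32-fold, from 933 ± 19.9 to 708 ± 10.2 CPM, with 9 called lower.

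The other 4 of the 8 largest falls ranged from 1.32-fold to 1.34-fold and lay at chr13:56180968-56237563, chr6:90961586-91059218, chr15:97616295-97671566 and chr16:90750299-90806837. In control libraries the 8 falling chains held 11.3 to 14.7 CPM per kilobase of member and the 8 rising ones 6.49 to 11.6 CPM. The control libraries enter both this level and the change by which the chains were chosen, so this order is a description only. Only 1 chain off chromosome 5 fell further than that at chr1:62750547-62831426. It lay below the median level at chr15:101146833-101221209, named after its values were seen, and its 5 members went from 224, 234 and 227 CPM to 158, 137 and 153 CPM (1.53-fold, adjusted p = 1.87e-17 by edgeR's quasi-likelihood test).

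**Figure D3:**
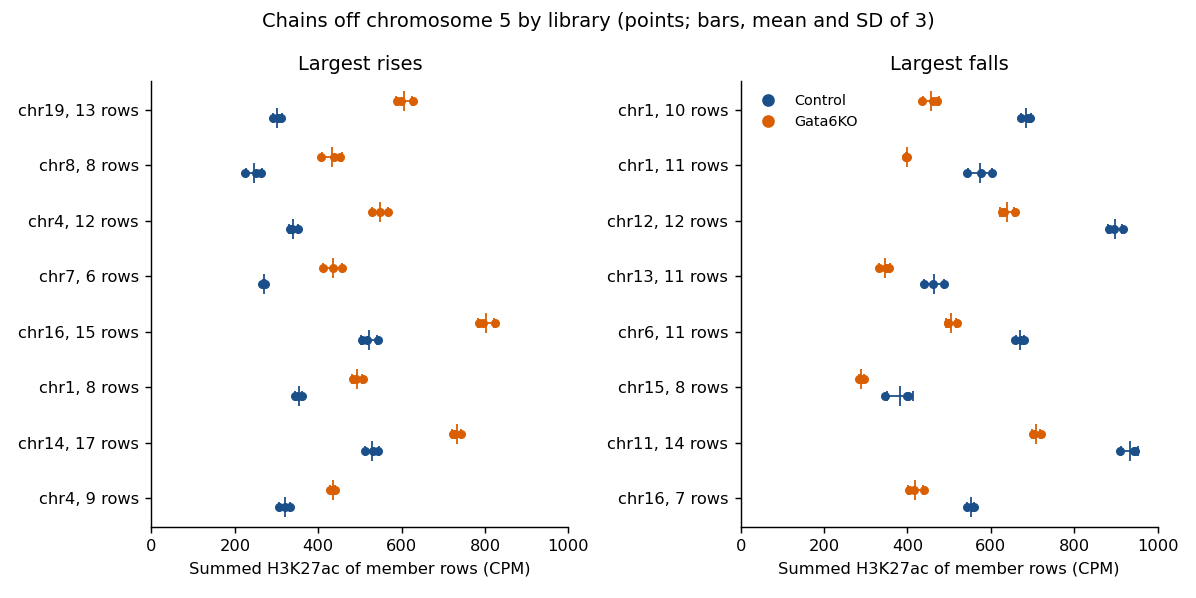
Summed level (CPM) in each of the 6 libraries for the 8 largest rises and the 8 largest falls among dense chains off chromosome 5 at or above the median level. Each point is a library. Only called chains whose 3 control and 3 knockout points do not overlap were eligible.

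The strongest chains in control changed little. The chain with the highest sum, 30 members over 285.1 kb at chr1:129101139-129386232, held 2125, 2094 and 2035 CPM in control and 2191, 2090.3 and 1948 CPM in knockout libraries. The groups overlapped, the log2 fold change was -0.01 ± 0.03 (adjusted p = 0.905 by edgeR's quasi-likelihood test), and the chain ranked first in both. The chain with the most peaks, 39 at chr6:133971652-134222851, held 1611, 1615 and 1621 CPM in control and 1730.3, 1710.0 and 1663 CPM in knockout libraries. Its rise was small, at 0.07 ± 0.03 (adjusted p = 3.01e-02 by edgeR's quasi-likelihood test). That call was lost without control library 1, control library 2, knockout library 1 or knockout library 2 (adjusted p from 0.0545 to 0.141). It was also lost in a fit without chromosome 5 (adjusted p = 0.133).

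The chain of 37 peaks at chr14:121562518-121792065 held 1703, 1585 and 1492 CPM in control and 1501, 1463 and 1470.1 CPM in knockout libraries. The groups overlapped, and the log2 fold change was -0.11 ± 0.03 (adjusted p = 1.15e-03 by edgeR's quasi-likelihood test). Without control library 1 it was -0.05 (adjusted p = 0.230), and DESeq2 gave an adjusted p of 0.162. In this chain 2 members were called higher and 7 lower. The next 2 sums after the highest, at chr11:8331811-8565357 and chr7:73007092-73206480, each fell with a log2 fold change of -0.11, from 1706 ± 51.5 to 1581 ± 29.3 CPM and from 1690.5 ± 29.3 to 1569 ± 27.6 CPM. The first of these was -0.07 with scaling that varied with mean count, still called (adjusted p = 3.92e-02 by edgeR's quasi-likelihood test). At chr9:121205972-121383288 the log2 fold change was -0.13 and at chr11:119612503-119760589 it was -0.17, and at chr15:27661979-27830654 it was -0.02 with an adjusted p of 0.713 (edgeR's quasi-likelihood test).

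Small falls at chr4:62243682-62368310 (log2 fold change -0.08, adjusted p = 2.82e-02 by edgeR's quasi-likelihood test) and chr7:30112603-30304819 (-0.09, adjusted p = 1.22e-02) depended on single libraries and on the scaling. The first was lost without control library 1 or 2 or knockout library 2 or 3 (adjusted p from 0.0586 to 0.292). The second was lost without control library 1 or knockout library 1 or 2 (adjusted p from 0.0554 to 0.0981). With trended offsets, a scaling that varies with mean count, they were -0.04 and -0.06 and neither was called (adjusted p = 0.405 and 0.138 by edgeR's quasi-likelihood test). With total counts the first had an adjusted p of 0.0597. Over the 71 chains off chromosome 5 in the top 10% by control level, 13 were higher and 25 lower, with log2 fold changes from -0.49 to 0.38. In the 71 of the bottom 10%, 27 were higher and 2 lower. Over all 706 chains 22.5% were higher and 21.8% lower. The control libraries enter both the ranking and the change, so these counts are a description only.

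On chromosome 5 most dense chains fell, as did peaks of the chromosome in general. Of its 86 dense chains 74 were lower in the knockout, 2 were higher and 10 were not called, where 42.6% of the 719 chains of any size on the chromosome were called lower and 7.65% higher. These shares were not matched for level. The median log2 fold change of the dense chains was -0.28, and 83 of the 86 were negative. Single members there had a median of -0.28, and peaks under 12.5 kb outside dense chains -0.23, a difference that was not tested. With the chromosome's median of -0.26 removed, 22 of the 86 chains were lower and 12 higher and their median was -0.02. Whether the chromosome differs in copy number between the genotypes was not tested.

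The fall of the 8-peak chain at chr5:66845030-66888375 was the largest on the chromosome. Its sum was 373, 366 and 329 CPM in control and 195, 209.9 and 173 CPM in knockout libraries, a 1.85-fold fall in which all 8 members were called lower. The log2 fold change was -0.89 ± 0.06, and -0.63 with the shift removed (adjusted p = 3.12e-25 by edgeR's quasi-likelihood test). The next largest falls, at chr5:24378437-24415377 and chr5:24557257-24607992, were both 1.58-fold, and with the shift removed their log2 fold changes were -0.41 and -0.40. Among the strongest chains of the chromosome, that at chr5:140482631-140794249 fell from 1443 ± 51.9 to 1033 ± 34.2 CPM and that at chr5:116298377-116475534 from 1140.4 ± 23.6 to 796 ± 13.5 CPM. With the shift removed, these falls were -0.22 and -0.26 on the log2 scale, both still called.

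Against this background 2 chains were higher. The longest of all dense chains, 28 members over 381.9 kb at chr5:36359913-36741820, held 1211, 1154 and 1224 CPM in control and 1368, 1375 and 1380.5 CPM in knockout libraries. The rise was 1.15-fold (log2 fold change 0.20 ± 0.03, adjusted p = 1.69e-09 by edgeR's quasi-likelihood test), and 0.46 on the log2 scale with the shift removed. Of its members 25 had a positive fold change but 5 were called higher, so a small rise was spread over the chain. Its last member, chr5:36731118-36741820, rose more than the chain, from 98.6 ± 14.3 to 146 ± 5.77 CPM (adjusted p = 9.82e-03 for the difference, edgeR's test for unequal change).

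The other, an 8-peak chain at chr5:65000592-65059193, held 341, 367 and 358 CPM in control and 433, 391 and 382 CPM in knockout libraries. Its log2 fold change was 0.18 ± 0.05 (adjusted p = 1.92e-03 by edgeR's quasi-likelihood test), and the call was lost without knockout library 1 (adjusted p = 0.0925). In this chain 1 member was called higher, chr5:65055774-65059193, which went from 23.7 ± 3.99 to 48.4 ± 6.05 CPM. It rose by 0.85 more than its chain on the log2 scale (adjusted p = 1.33e-05, edgeR's test for unequal change).

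Within the chains, members tended to move the same way. Off chromosome 5, 83.3% of the 1433 members of higher chains had a positive fold change, and 81.2% of the 1428 members of lower chains a negative one. These shares follow in part from the sum that defined the chain as higher or lower. Calls of single members were sparser: 500 members of the higher chains were called higher and 9 lower, and 349 members of the lower chains were called lower and 10 higher. Over all peaks off chromosome 5, 12.3% were called higher and 8.10% lower. These counts too follow in part from the sums by which the chains were sorted. In 4 of the 159 higher chains and 2 of the 154 lower ones each member was called in the direction of the chain. In 7 higher and 17 lower chains no member was called, although their sum was. The strongest member held a median of 26.7% of the level of its chain over all 706 chains. In 165 of the 313 called chains it was called the same way as the sum, in 144 it was not called and in 4 it was called the other way.

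The spread of the changes between and within chains was of similar size. Off chromosome 5, the standard deviation of the log2 fold change was 0.20 between chains and 0.25 within them, an intraclass correlation of 0.403, and the median standard error of a member was 0.152. Adjacent members less than 2.5 kb apart had correlated fold changes (Pearson's r 0.557 over 2637 pairs, a description across peaks that share libraries and chromosome). The correlation was 0.533 for gaps of 2.5 to 5 kb and 0.445 for gaps of 5 to 12.5 kb. Counted in steps along the chain, r was 0.519 for members 1 step apart, 0.314 for 5 steps and 0.306 for 8 steps. Adjacent peaks outside dense chains with gaps of at most 12.5 kb gave 0.580. Over all adjacent peaks, r was 0.357 for gaps from there to 50 kb and 0.102 beyond 50 kb. The fold changes of members were thus less alike at wider gaps within a chain. Members at the ends of a chain were slightly weaker than those inside it (median 30.5 and 34.4 CPM in control) and were called about as often, at 10.7% higher and 7.58% lower against 10.2% and 7.78%.

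**Figure D4:**
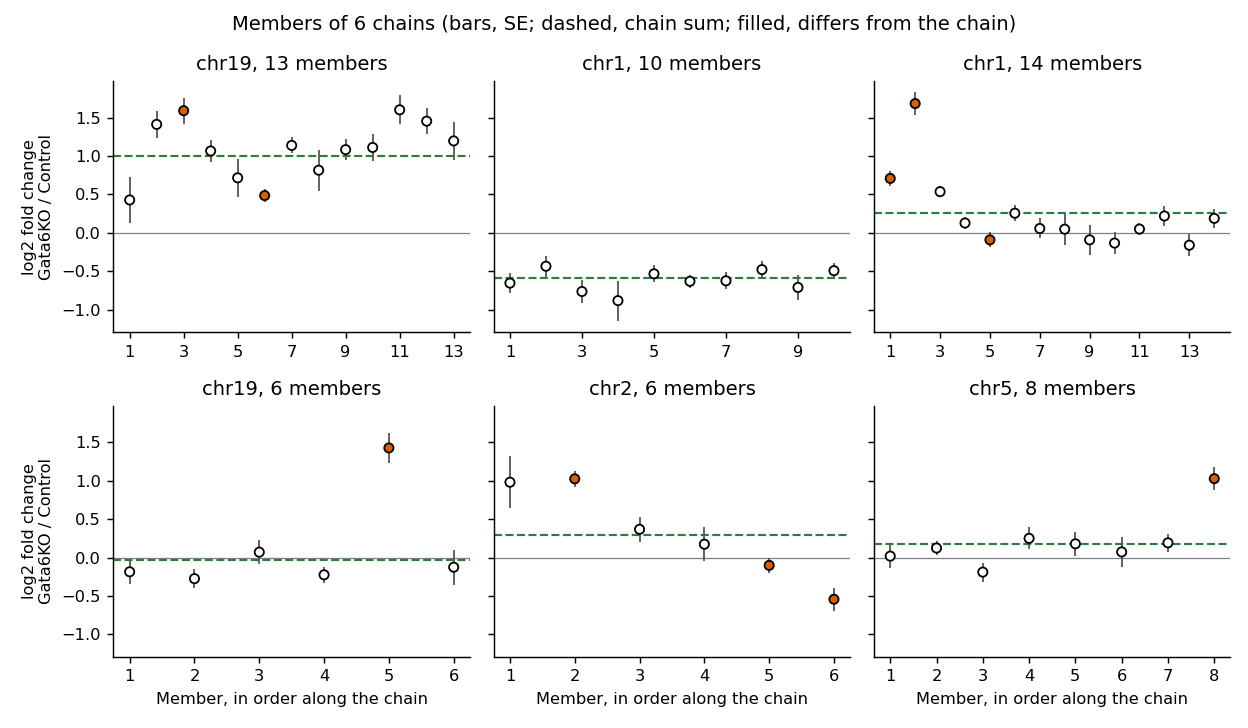
Log2 fold change of each member (error bars, SE) in order along selected dense chains, with the fold change of the chain sum as a line. In the chain at chr1:62750547-62831426 the members stay close to the line at -0.59, whereas in that at chr1:137685183-137816595 a single member reaches 1.68.

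A member that departs from its chain was identified by testing its fold change against that of the chain. Such a difference was found for 252 members (3.64%) in 152 cases above and 100 below the chain, where 2.41% of all 16203 peaks in chains of 2 or more peaks differed (edgeR's test for unequal change, adjusted p under 0.05). By chain, 122 dense chains (15.4%) showed unequal change (Simes adjusted p under 0.05), against 5.37% of chains of 2 or more peaks. These shares were not matched for level or number of peaks. The count was 119 to 169 when 1 library was left out. It was 157, 152 and 145 without control library 1, 2 or 3, 158 and 119 without knockout library 1 or 2, and 169 without knockout library 3. Off chromosome 5, 110 of the differing members lay in chains called higher, 43 in chains called lower and 81 in chains not called. In 53 of the 706 dense chains off chromosome 5, at least 1 member was called higher and at least 1 lower. This count was not set against other chains.

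The chain with the clearest unequal change held 14 peaks at chr1:137685183-137816595 (Simes adjusted p = 4.55e-17, edgeR's test for unequal change). Its sum rose from 912 ± 27.6 to 1095 ± 26.5 CPM. A weak member near its start, chr1:137694815-137698418, went from 22.3, 16.4 and 20.9 CPM to 68.6, 67.8 and 55.8 CPM, a log2 fold change of 1.68 ± 0.14 against 0.26 for the chain. The neighbouring first member, chr1:137685183-137693430, went from 72.2 ± 2.74 to 118 ± 8.82 CPM. Further on, the member at chr1:137722080-137731368 went from 85.9 ± 5.41 to 80.6 ± 4.11 CPM and was not called by itself. It lay 0.36 below the chain on the log2 scale (adjusted p = 2.75e-02, edgeR's test for unequal change). The 3 members called higher were the first 3 of the chain, so its gain was concentrated at its start.

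In the chain of 6 peaks at chr2:4898913-4930415 members moved in opposite directions. The member at chr2:4904558-4909445 went from 44.9, 56.1 and 49.0 CPM to 99.6, 98.7 and 106 CPM, and was 1.02 ± 0.11 higher on the log2 scale. The last member, chr2:4927012-4930415, went from 40.4, 42.1 and 37.5 CPM to 26.5, 26.1 and 29.5 CPM, a log2 fold change of -0.54 ± 0.15. Both differed from the chain (adjusted p = 2.77e-08 and 3.17e-05, edgeR's test for unequal change), and both pairs of groups did not overlap. The sum, which rose from 222 ± 6.07 to 272 ± 14.0 CPM, showed the gain only.

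Sums could also hide a change altogether. At chr19:41939374-41988717 the chain held 235 ± 1.72 CPM in control and 229 ± 3.60 CPM in knockout libraries and was not called (adjusted p = 0.705 by edgeR's quasi-likelihood test). Its member at chr19:41974557-41976854 went from 11.8, 12.7 and 11.2 CPM to 25.1, 31.9 and 38.5 CPM, a log2 fold change of 1.43 ± 0.19. Likewise the 8-peak chain at chr11:120337478-120383213 was not called (327 ± 24.4 and 343 ± 6.94 CPM), while its last member, chr11:120380690-120383213, went from 13.6, 19.1 and 15.2 CPM to 39.7, 42.4 and 35.3 CPM. At chr7:123257838-123347179 the sum rose by 0.15 on the log2 scale and its first member, chr7:123257838-123260755, by 1.16, from 27.3 ± 4.48 to 61.0 ± 2.06 CPM. The named members of these 3 chains held 11.9, 15.9 and 27.3 CPM in control.

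Members were also counted singly. Off chromosome 5, 639 members (10.3%) were called higher and 478 (7.73%) lower, where 12.3% of all peaks off chromosome 5 were called higher and 8.10% lower (edgeR's quasi-likelihood test, adjusted p under 0.05). Among peaks outside dense chains the shares were 13.0% and 7.51%. The median log2 fold change was 0.57 in members called higher and -0.43 in those called lower. On chromosome 5, 10 members (1.36%) were higher and 282 (38.4%) lower, against 4.46% and 33.8% of all peaks there and 6.13% and 28.0% of those outside dense chains. The difference between members and other peaks was not tested.

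Members and other peaks differ in level, so the shares were also set side by side within 5 classes of mean level, each with an equal share of all peaks, off chromosome 5. In the weakest class 9.50% of members and 14.6% of outside peaks were called higher, and in the strongest class 12.1% and 18.4%. In each of the 5 classes the share called higher was smaller among members. For lower calls the share was smaller among members in the first 4 classes, for example 1.74% against 2.18% in the weakest, and larger in the strongest, at 14.2% against 13.3%. With trended offsets the weakest class had 5.45% of members and 9.24% of outside peaks higher, and 3.36% and 5.09% lower. The share called higher was again smaller among members in each class. The fold changes of members also spread less, with a standard deviation of 0.40 against 0.49 in the weakest and 0.25 against 0.31 in the strongest class.

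**Figure D5:**
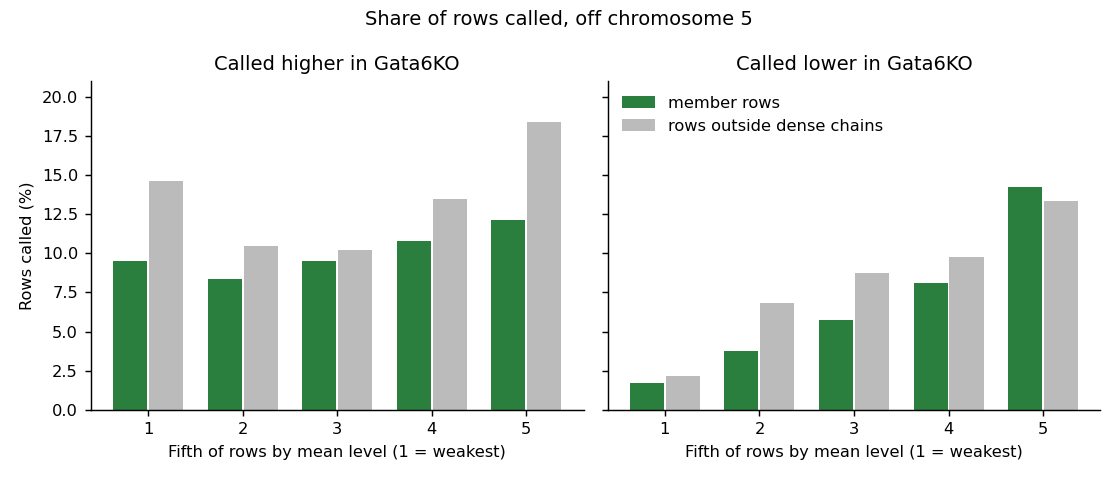
Percentage of peaks called higher and called lower in the knockout by class of mean level, for members of dense chains and for other peaks off chromosome 5. The share called higher is smaller among members in each class, at 12.1% against 18.4% in the strongest.

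Calls by the number of peaks in a chain showed no clear step at 6. Off chromosome 5, of the 304 chains with 5 peaks, just outside the rule, 20.7% were higher and 18.8% lower, at a median control level of 188 CPM. Of the 174 chains with 6 peaks, just inside it, 24.7% were higher and 13.8% lower, at 213 CPM. In chains of 10 to 14 peaks 19.7% were higher and 27.4% lower, and of the 59 chains with 15 or more, 16 were higher and 17 lower, with log2 fold changes from -0.32 to 0.62. At the limit of width, the 197 members of 10 kb and more had a median of 150.2 CPM in control, and 12.2% were called higher and 22.8% lower. The 106 peaks between 12.5 kb and 15 kb that were left out had 182 CPM, 12.3% and 20.8%. Over all peaks off chromosome 5 the shares were 12.3% and 8.10%, and over members in the strongest class of mean level 12.1% and 14.2%. Wide peaks were not matched with others for level, and the difference was not tested.

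Members off chromosome 5 held a share of the reads in peaks that was 28.5%, 28.5% and 28.3% in control and 28.9%, 28.8% and 28.7% in knockout libraries. The groups did not overlap, but with 3 against 3 libraries the exact permutation test cannot go below its smallest p of 0.1, which it gave (two-sided). The direction depended on the denominator. Of the reads off chromosome 5 alone, members held 31.7% ± 0.174 in control and 31.5% ± 0.103 in the knockout (SD over 3 libraries; exact permutation p = 0.3). On chromosome 5, members held 3.76% ± 0.0616 of all reads in peaks in control and 3.12% ± 0.0155 in knockout libraries. Of the reads on chromosome 5 alone they held 36.4% ± 0.344 in control and 35.5% ± 0.157 in knockout libraries (exact permutation p = 0.1, the smallest possible). The share of reads in peaks held by members off chromosome 5 thus differed by less than 1 percentage point between the genotypes by either measure. With the wide peaks of these chains kept, the share of all reads in peaks was 37.24% in control and 37.25% in knockout libraries.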

How the data were processed

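H3K27ac CUT&RUN was analysed in 6 libraries. The deposited table holds raw counts of reads, without normalization, over 1 peak set common to the libraries. Bowtie, Picard, SAMtools, SEACR, bedtools and mm9 are named, per the submitters' processing notes, with no versions or roles. Between 82.8% and 88.9% of the counts in a library were even, so counting error is wider than the read number implies. Levels are CPM (library size, reads in peaks) with TMM factors from all peaks, which hides any change common to every peak. Peaks and chain sums were each fitted over the whole table with edgeR 4.0.16 in R 4.3.3 (quasi-likelihood, group as the only term, two-sided, Benjamini-Hochberg). Unequal change within chains was tested with edgeR's diffSpliceDGE, which compares a peak with its chain's total, itself included; scripts were tested on simulated data. Shares of reads were tested by exact permutation (SciPy 1.17.1). Alternatives were DESeq2 1.42.0, other scalings, offsets that varied with mean count (trended offsets), other chain definitions, a replicate block and leaving out single libraries. The members and lists were chosen with earlier results of these data known. Named chains off chromosome 5 were the 10 with the highest control sums, the 8 largest rises and 8 largest falls among called chains at or above the median level whose groups did not overlap, the 3 with the most peaks and the 5 with the lowest Simes p. On chromosome 5 they were the 3 highest, 3 most negative and 2 most positive. Within them, the strongest and most changed members were named, and members that differed from their chain were named after their values were seen.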

Additional observations from a re-analysis of the deposited data

How the results depend on the processing

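Of 563 alternative values for 38 named chains, 539 kept direction and side of the threshold, 18 lost the call and 6 changed sign. The 539 include values that could not move. The expression filter removed 0 chains, and removing the chromosome 5 shift left fold changes on other chromosomes as they were. The 8 largest rises and 8 largest falls were also chosen among called chains whose groups did not overlap. The 539 are therefore no measure of how stable dense chains are in general. The 6 changes of sign belonged to 2 chains with no called change. The log2 fold change at chr1:129101139-129386232 became 0.0043 with total counts, 0.026 with trended offsets, and -0.046 to 0.039 with a library left out (0.012 without control library 1, 0.039 without knockout library 3). At chr15:27661979-27830654 it became 0.012 with trended offsets and -0.036 to 0.0075 with a library left out (0.0075 without knockout library 3). The counts moved mainly with the definition of a chain, since fewer or more peaks qualified. At gaps of up to 5 kb, 56 chains were higher and 72 lower off chromosome 5, and 1 and 36 on it, with 186 and 203 members off and 6 and 111 on it. With 10 or more peaks required, chains numbered 47 and 60 off and 1 and 18 on chromosome 5, and members 268 and 241 off and 5 and 102 on it. At gaps of up to 25 kb, 1061 members were higher and 719 lower off chromosome 5, and 31 were higher on it. With the chromosome 5 shift removed, 12 chains were higher and 22 lower there, and 50 and 61 members. Higher members on chromosome 5 numbered 18 with wide peaks kept and 5 with them removed before linking. The balance of calls off chromosome 5 moved with the scaling. Chains numbered 177 higher and 136 lower with trended offsets, and 145 and 182 in a fit without chromosome 5. Members numbered 681 and 424, and 581 and 529. Leaving out single libraries gave 139 to 157 chains higher and 122 to 151 lower off chromosome 5, and 1 to 2 and 66 to 74 on it (1 higher without knockout library 1). Members then numbered 531 to 563 and 348 to 416 off, and 8 to 11 and 209 to 243 on it. Members that differed from their chain numbered 119 to 169. The knockout share of reads minus that of control was 0.320 percentage points off chromosome 5, 0.242 to 0.366 with a library left out, 0.0092 with wide peaks kept, 0.023 with 10 or more peaks required and -0.181 among reads off chromosome 5. With the replicate number as a replicate block, 164 chains were higher and 168 lower off chromosome 5 and 288 members differed from their chain. All 389 called dense chains kept their call with this block. Leaving out 1 library kept 325 (without control library 1) to 363 (without control library 3) of these calls. Off chromosome 5, 257 of 313 calls were kept without control library 1. Trended offsets kept 363 of the 389, and removing the chromosome 5 shift kept 336. Deviations of same-numbered libraries correlated at 0.00601 to 0.0661, so the numbers are not shown to pair the libraries. edgeR's expression filter removed 0 peaks and so tested nothing. No background was subtracted.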
